A study of Mus musculus with 10 samples.

Results

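The genes described here carry the JAK-STAT signal of cytokine receptors, the interleukin 4 (IL-4) receptor and the SOCS brakes of the same pathway. The 10 genes were chosen by name, as the rows of the count table for *Jak1*, *Jak2*, *Jak3*, *Tyk2*, *Stat3*, *Stat6*, *Il4ra*, *Socs1*, *Socs3* and *Cish*, of 55487 genes in all. Each name had 1 row, and all 10 were among the 13740 genes that passed the filter on low counts. The 10 libraries came from the spinal cords of 5 male mice on a C57BL/6 background with the genotype Arg1tm1Lky, an *Arg1*-eYFP reporter in which cells that transcribe *Arg1* turn yellow fluorescent. The labels number the animals m2, m234, m235, m236 and m6. They had peak experimental autoimmune encephalomyelitis (EAE), induced by immunization with a myelin peptide in complete Freund's adjuvant and pertussis toxin. The animals of the study were 8 to 12 weeks old. From each animal, viable cells negative for CD3 and Ly6G and positive for CD45 and CX3CR1 were sorted into 200000 YFP+ cells, called ARG1+, and 100000 YFP- cells, called ARG1-. This gave 5 libraries per group, with no healthy animals for comparison. The gate took every CX3CR1+ cell of this kind, so that border-associated macrophages and monocyte-derived cells (Mdcs) were not separated.

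In this pathway a cytokine joins its receptor chains, the JAK kinases bound to these chains phosphorylate each other and the receptor, and STAT proteins dock there, are phosphorylated and move to the nucleus. IL-4 signals through the IL-4 receptor alpha chain with JAK1, JAK3 and STAT6, and in macrophages STAT6 is a known activator of *Arg1*. IL-6 and IL-10 family cytokines act mainly through STAT3, and GM-CSF, a growth factor of myeloid cells, acts through JAK2 and STAT5. SOCS1, SOCS3 and CISH are made in response to STATs and turn the signal down.

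The total count per library was 28870482 to 33826355 in ARG1+ cells and 8396863 to 35455643 in ARG1- cells, and the lowest of these was the ARG1- library of m234. *Arg1*, the gene behind the sort, lay at 587 to 1050 CPM (counts scaled to a common library size, here by the TMM method) in ARG1+ libraries and at 14.3 to 26.9 CPM in ARG1- libraries. The myeloid gene *Lyz2* was abundant in every library, at 8490 to 13000 CPM in ARG1+ cells and 6220 to 8840 CPM in ARG1- cells. The markers *Cd3d*, *Cd3e* and *Cd3g* of the T cells that the gate removed had 33, 33 and 37 counts over all 10 libraries together, and *Ly6g* of neutrophils had 14. Of 8 monocyte and myeloid markers 3 were higher and 1 was lower in ARG1+ cells, or 3 and 5 with the animal as a block. The lower one, *Ccr2*, was at 130 to 233 CPM in ARG1+ cells and 292 to 496 CPM in ARG1- cells. Markers of other cell types differed between the groups as well. The summed level of 12 dendritic cell markers was 18.0 to 37.0 CPM in ARG1+ cells and 45.7 to 87.3 CPM in ARG1- cells, and 7 of the 9 tested were lower in ARG1+ cells. That of 8 microglia markers was 751 to 1120 CPM against 808 to 2650 CPM and was lower in ARG1+ cells in 5 of 5 animals, with 0 of the 8 called by edgeR or limma-trend, 1 by DESeq2, 4 at an unadjusted edgeR p below 0.05 and 6, all lower, with the animal as a block. Of 8 B cell markers 3 were tested and 2 were lower in ARG1+ cells. These were *Ighm* and *Igkc*, at 2.97 to 8.74 against 14.3 to 41.4 CPM and 0 to 4.56 against 7.02 to 23.6 CPM. The third tested marker had a log2 fold change of 0.08 (edgeR FDR 0.921). *Ms4a1*, a defining B cell marker, had 9 counts in all.

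Expression of the pathway genes was compared between ARG1+ and ARG1- cells with edgeR's quasi-likelihood test, in which a gene was called at a false discovery rate (FDR) below 0.05 over all 13740 genes tested. Of the 10 genes, *Jak2* and *Stat3* fell in ARG1+ cells, 0 rose and 8 were not called. Over all tested genes, 6.15% were called lower and 6.82% higher in ARG1+ cells. The median log2 fold change of the 10 genes was -0.10, and that of all tested genes was -0.0022. With the additional limit of an absolute log2 fold change above 1 that the study's methods apply, 0 of the 10 were called, where 1.45% of all tested genes were. This fit did not pair the libraries of an animal. With the animal as a block, 4 of the 10 were called lower, where 18.3% of all tested genes were. In bulk RNA of sorted cells, fewer cells of a type and less RNA per cell cannot be told apart.

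**Figure D1:**
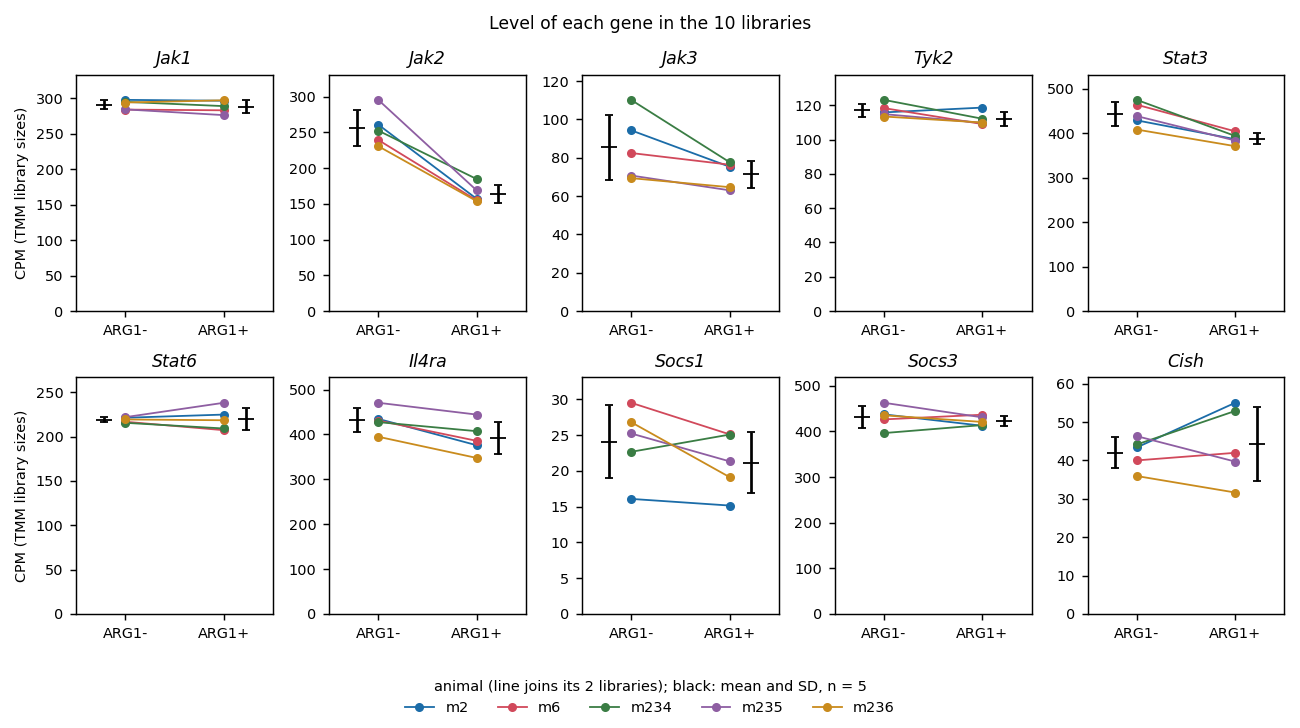
Level of each of the 10 genes, in CPM (vertical axes from 0), in ARG1- and ARG1+ cells; each colored line joins the 2 libraries of 1 animal, and black marks give the mean and SD (n = 5). *Jak2* drops in all 5 animals without overlap of the groups, *Stat3* does so by less, and *Jak1* and *Stat6* are nearly level.

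*Jak2*, the kinase of the GM-CSF, interferon gamma and IL-12 receptors among others, showed the largest difference of the 10 genes. In ARG1- cells it was measured at 261 CPM in m2, 239 in m6, 252.5 in m234, 296 in m235 and 231 in m236. In ARG1+ cells it was at 157 CPM in m2, 155 in m6, 185 in m234, 169 in m235 and 154 in m236. The highest ARG1+ library lay below the lowest ARG1- library, and the mean was 164 ± 13.1 CPM (SD, n = 5) against 256 ± 25.1 CPM (SD, n = 5). Groups that do not overlap with ARG1+ cells lower were found for 5.2% of all tested genes. *Jak2* expression fell by 35.9%, a log2 fold change of -0.64 (SE 0.0771, 95% confidence interval -0.81 to -0.47, edgeR FDR 0.000488). Within animals the log2 ratio ran from -0.45 in m234 to -0.81 in m235. The call was kept under every alternative that was run except the fold limit, with a log2 fold change of -0.58 to -0.69 over the 15 fits that left out a library or an animal. Leaving out the ARG1- library of m234, which had the fewest counts, gave -0.64. The part of the microglia, dendritic cell and monocyte markers in the *Jak2* difference was not tested. The 2-sided exact permutation test over the libraries gave p = 0.00794, not adjusted, which is the smallest p that 5 against 5 libraries allow. This test treated all libraries as independent and did not use their pairing by animal.

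The level of *Jak2* was also set against that of its relatives within each library, which does not depend on how libraries are scaled. There were 0.785 to 1.04 *Jak2* counts for each *Jak1* count in ARG1- libraries and 0.518 to 0.640 in ARG1+ libraries. Against *Tyk2*, the ratio was 2.02 to 2.57 in ARG1- libraries and 1.32 to 1.65 in ARG1+ libraries. Neither ratio overlapped between the groups. In the genome build GRCm38, *Jak2* (ENSMUSG00000024789) lies on the forward strand at chr19:29251828-29313080. Its exons overlapped no other annotated gene, and 0 of its stretches of 50 bases were found in transcripts of other genes. As *Jak2* had the largest fall, the 250 bases before its RefSeq start (GRCm38.p6, forward strand, chr19:29251553-29251802) are shown, all in lower case as no STAT motif was found in them.

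Jak2 promoter: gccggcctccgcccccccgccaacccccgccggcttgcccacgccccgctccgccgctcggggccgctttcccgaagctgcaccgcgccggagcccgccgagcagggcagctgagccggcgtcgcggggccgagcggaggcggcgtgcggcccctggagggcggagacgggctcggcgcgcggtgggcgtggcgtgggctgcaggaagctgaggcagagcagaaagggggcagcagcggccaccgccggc

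This window had a G and C content of 80.8%. The letters searched were TTCNNNGAA, the site shared by most STATs, and TTCNNNNGAA, the wider site that STAT6 prefers. Both read the same on either strand, and they do not contain each other. TTCNNNGAA was present in the 250 bases before the start for 7.02% of 32851 RefSeq promoters and TTCNNNNGAA for 5.85%. Of the 10 genes, *Socs3* alone held the first and none held the second. Only these 250 bases were searched, so sites elsewhere would be missed. For *Socs3* and *Cish* the searched bases lie wholly within the annotated gene, downstream of its outermost start.

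The other kinases differed less. *Jak1*, which serves the IL-4, IL-6, IL-10 and interferon receptors, was at 276 to 297 CPM in ARG1+ cells and 284 to 298 CPM in ARG1- cells. The log2 fold change of *Jak1* was -0.013 with a 95% confidence interval of -0.11 to 0.087 (edgeR FDR 0.88). *Tyk2*, the partner kinase of the interferon alpha and IL-12 receptors, was at 109 to 119 CPM against 113 to 123 CPM, with a log2 fold change of -0.065 and an interval of -0.16 to 0.033 (edgeR FDR 0.361). Of the *Tyk2* transcript, 7.52% of the 50-base stretches also occurred in opposite-strand transcripts, which can share its reads where strand is not used in counting.

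*Jak3*, which pairs with the common gamma chain of the IL-2, IL-4 and IL-7 receptors, was measured in ARG1- cells at 94.3 CPM in m2, 82.5 in m6, 110 in m234, 70.7 in m235 and 69.4 in m236. In ARG1+ cells it was at 75.3 CPM in m2, 76.4 in m6, 77.7 in m234, 63.0 in m235 and 64.6 in m236. The groups overlapped, but within each of the 5 animals the ARG1+ library was the lower of the pair. The log2 fold change was -0.25 (SE 0.121, 95% confidence interval -0.52 to 0.013), and the edgeR FDR was 0.187. With the animal as a block, it was -0.24 (SE 0.0575) with an edgeR FDR of 0.0102, where 18.3% of all tested genes were called lower. Exons of *Jak3* share 9.05% of their length with *Insl3* on the same strand, which makes its count less certain.

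**Figure D2:**
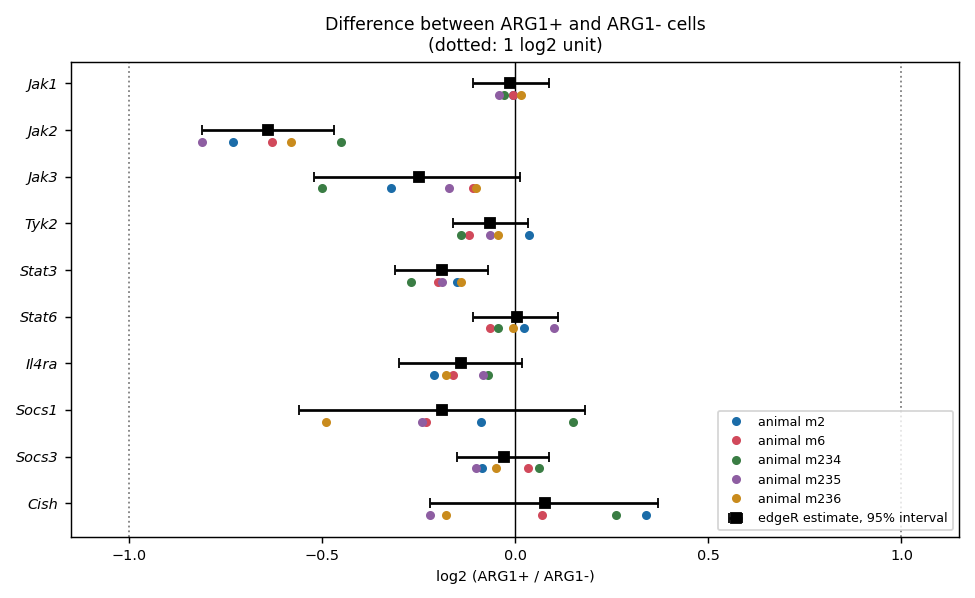
Log2 fold change between ARG1+ and ARG1- cells for each gene. Black squares and bars are the edgeR estimate and its 95% confidence interval over 10 libraries, without a block for the animal. Colored points are the log2 CPM ratio within each animal, and dotted lines mark 1 log2 unit. The intervals of *Jak2* (-0.81 to -0.47) and *Stat3* (-0.31 to -0.069) lie below 0, and those of the other 8 genes include it.

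Of the transcription factors, *Stat3* was slightly lower in ARG1+ cells. It was measured at 429 CPM in m2, 464 in m6, 475 in m234, 439 in m235 and 408 in m236 in ARG1- cells. In ARG1+ cells it was at 387 CPM in m2, 404 in m6, 394 in m234, 384 in m235 and 371 in m236. The groups did not overlap, which held with ARG1+ cells lower for 5.2% of all tested genes. The highest ARG1+ library and the lowest ARG1- library, of 404 and 408 CPM, were close. *Stat3* expression fell by 12.4%, a log2 fold change of -0.19 (SE 0.056, edgeR FDR 0.043). This call was near the limit. Of the 15 fits without a library or an animal, 14 had an FDR at or above 0.05 (all but the one without the ARG1- library of m236), with a log2 fold change of -0.16 to -0.22 over all 15 (edgeR FDR 0.0334 to 0.14). Without a filter on low counts the edgeR FDR was 0.151. The exact permutation test, which again did not use the pairing by animal, gave p = 0.00794, not adjusted. This is the smallest p it allows, and groups without overlap always give it, so it adds nothing to the lack of overlap.

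*Stat6*, the factor that IL-4 and IL-13 activate, did not pass the test. Its level was 207 to 238 CPM in ARG1+ cells, with a median of 218, and 215 to 222 CPM in ARG1- cells, with a median of 219. The ARG1+ range was the wider one and contained all 5 ARG1- libraries. The log2 fold change was 0.0038 with a 95% confidence interval of -0.11 to 0.11 (edgeR FDR 0.972), and the ARG1+ library was the higher one in 2 of 5 animals. The ratio of *Stat3* to *Stat6* counts was 1.61 to 1.95 in ARG1+ libraries and 1.86 to 2.21 in ARG1- libraries. The groups overlapped, and the ratio was lower in ARG1+ cells in 5 of 5 animals.

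*Il4ra*, the receptor chain to which IL-4 binds, was lower in ARG1+ cells in 5 of 5 animals. In ARG1- cells it was measured at 435 CPM in m2, 431 in m6, 427 in m234, 470 in m235 and 395 in m236. In ARG1+ cells it was at 376 CPM in m2, 386 in m6, 407 in m234, 444 in m235 and 348 in m236. The groups overlapped, since m235 was highest and m236 lowest in each group. The log2 fold change was -0.14 (SE 0.0724, 95% confidence interval -0.30 to 0.019), with an edgeR FDR of 0.22. With the animal as a block it was -0.14 (SE 0.0367) with an edgeR FDR of 0.014, where 18.3% of all tested genes were called lower. Part of the *Il4ra* transcript, 8.44% of its 50-base stretches, is also read from the opposite strand as *Gm44876*.

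RNA for IL-4 itself was not detected in these cells, from which the gate had removed T cells. IL-4 from other cells was not measured. *Il4* had 0 counts in all 10 libraries, which allows up to 0.357 CPM in the smallest library and 0.0846 CPM in the largest, for counting error only. *Il13*, the other ligand of this receptor chain, had 6 counts in all, spread over 4 libraries. The list for this axis held 7 genes, among them the ligands and chains of other receptors, and 3 passed the filter. Of these, 0 were called by edgeR, DESeq2 or limma-trend or had an unadjusted edgeR p below 0.05. With the animal as a block *Il13ra1* was called, at a log2 fold change of -0.13 (edgeR FDR 0.0331), where 18.3% of all tested genes were called lower. The 3 were *Il2rg*, the common gamma chain, *Il13ra1*, which forms the type II receptor with *Il4ra*, and *Crlf2*, a chain of the receptor for thymic stromal lymphopoietin. *Il13ra1* was the most abundant over the 10 libraries together, at 147 ± 8.21 against 160 ± 10.5 CPM (SD, n = 5), with an edgeR FDR of 0.18 without the block.

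None of the 3 feedback inhibitors was called by edgeR, DESeq2, limma-trend or at an unadjusted edgeR p below 0.05. *Socs3*, which binds the IL-6 receptor chain gp130 and JAKs, was the most highly expressed of the 10 genes per length. It was at 412 CPM in m2, 437 in m6, 414 in m234, 431 in m235 and 421 in m236 in ARG1+ cells. In ARG1- cells it was at 437 CPM in m2, 426 in m6, 396 in m234, 463 in m235 and 435 in m236. The ARG1+ libraries lay within the range of the ARG1- libraries, and the log2 fold change was -0.03 (95% confidence interval -0.15 to 0.087, edgeR FDR 0.749). There were 2.24 to 2.82 *Socs3* counts for each *Jak2* count in ARG1+ libraries and 1.57 to 1.89 in ARG1- libraries, without overlap. As *Socs3* was nearly level, this ratio restates the fall of *Jak2*. The *Socs3* window, called a promoter by its RefSeq start, is shown because it was the only one of the 10 with a STAT motif. It lies within the annotated gene, downstream of its outermost start. The capitals mark TTCNNNGAA, which began 154 bases before the RefSeq start, and 60 bases on each side are given (GRCm38.p6, reverse strand, chr11:117969452-117969580).

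Socs3 promoter: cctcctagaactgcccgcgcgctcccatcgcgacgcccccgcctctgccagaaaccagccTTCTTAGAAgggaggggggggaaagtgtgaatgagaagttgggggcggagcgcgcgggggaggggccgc

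*Socs1*, an inhibitor that binds JAKs directly, was the least expressed of the 10 genes. In ARG1- cells it was at 16.1 CPM in m2, 29.5 in m6, 22.7 in m234, 25.2 in m235 and 26.8 in m236. In ARG1+ cells it was at 15.2 CPM in m2, 25.1 in m6, 25.1 in m234, 21.3 in m235 and 19.1 in m236. It was lower in ARG1+ cells in 4 of 5 animals and higher in m234. The log2 fold change was -0.19 with a wide 95% confidence interval of -0.56 to 0.18 (edgeR FDR 0.487).

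*Cish*, which is induced by STAT5 and blocks its docking, differed between animals in ARG1+ cells. It was at 55.0 CPM in m2, 42.0 in m6, 52.9 in m234, 39.7 in m235 and 31.7 in m236 in ARG1+ cells. In ARG1- cells it was at 43.4 CPM in m2, 40.0 in m6, 44.2 in m234, 46.3 in m235 and 35.9 in m236. The ARG1+ library was higher in m2, m6 and m234 and lower in m235 and m236, so that the log2 ratio within animals ran from -0.22 to 0.34. The edgeR estimate was 0.078 (95% confidence interval -0.22 to 0.37, FDR 0.739). *Cish* exons overlap genes on the opposite strand over 13.1% of their length.

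The levels of the 10 genes were then ordered per length, as CPM per kilobase of merged exons, which sets genes of different length side by side. The order of the means was the same in each group, *Socs3*, *Il4ra*, *Stat3*, *Jak1*, *Stat6*, *Jak2*, *Tyk2*, *Jak3*, *Cish* and *Socs1*. In ARG1- cells it ran from 169 ± 9.37 CPM per kilobase for *Socs3* to 8.28 ± 1.76 for *Socs1* (SD, n = 5), and in ARG1+ cells from 166 ± 4.15 to 7.28 ± 1.45. Among the kinases of ARG1- cells, *Jak1* was at 59.3 ± 1.30 and *Jak2* at 50.9 ± 4.99 CPM per kilobase, and *Jak2* overlapped its neighbor *Stat6*. In ARG1+ cells *Jak2* was at 32.6 ± 2.61 CPM per kilobase and stood apart from *Stat6* at 58.1 ± 3.34. The ranges of *Jak1* and *Stat6* overlapped in each group. Those of *Stat3* and *Jak1* overlapped in ARG1+ cells, as did those of *Jak3* and *Cish*. The pairs *Il4ra* with *Stat3*, *Tyk2* with *Jak3* and *Cish* with *Socs1* overlapped in ARG1- cells. The length is that of all annotated exons, so a gene expressed from a short transcript is understated.

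**Figure D3:**
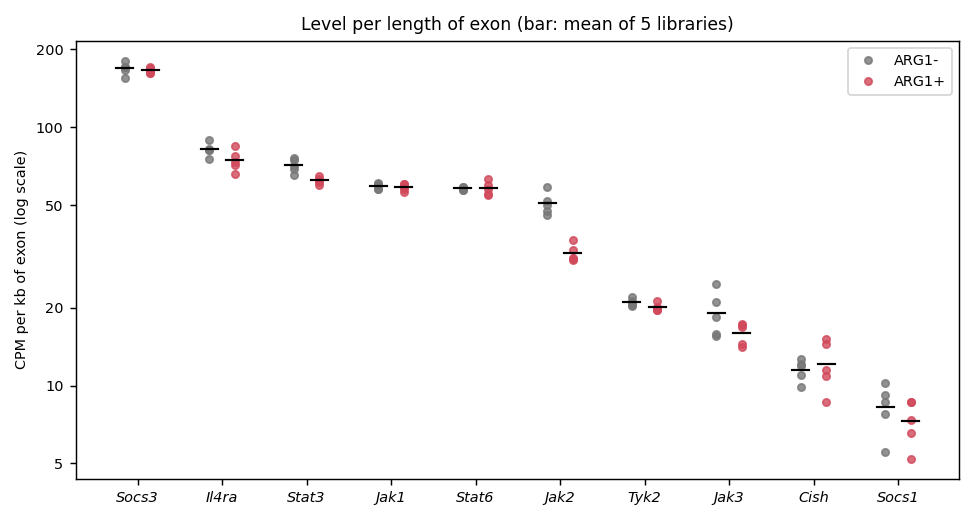
Level of the 10 genes as CPM per kilobase of exon on a log axis, with 1 point per library and a bar at the mean of 5 libraries, in ARG1- (gray) and ARG1+ (red) cells. *Jak2* falls from 50.9 to 32.6, away from *Stat6*, and the order of the means is the same in both groups.

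For the inhibitors, the genes with the most similar pattern of log2 CPM over the 10 libraries were listed as a description, where libraries of an animal are not independent. *Cish* had a Pearson correlation of 0.919 with *Myo1e*, 0.917 with *Clec9a* and 0.904 with *Sh3rf1*. *Socs1* had one of 0.949 with *Spsb3*, 0.940 with *Rybp* and 0.933 with *Ccl5*. *Socs3* had one of 0.951 with *Abracl*, 0.935 with *Stx3* and 0.928 with *Psma4*. These are the highest of 13739 correlations for each gene.

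The wider pathway was described with 97 other genes in 12 lists, of which 80 passed the filter. In ARG1+ cells 4 of these rose, 16 fell and 60 were not called, where 6.82% of all tested genes were called higher and 6.15% lower. The median log2 fold change of the 80 genes was -0.10. Of the 20 called, 6 kept the call in all fits without a library or an animal (*Ccl17*, *Ccl22*, *Il2ra*, *Il6ra*, *Il7r* and *Ptpn1*), and 14 lost it in at least 1, with 8 called without m2 and 8 without m6. With the animal as a block, 16 rose and 34 fell, where 16.8% of all tested genes were called higher and 18.3% lower. These shares, without and with the block, are also the background for the counts of each list below. Groups without overlap and lower in ARG1+ cells were found for 5.2% of all tested genes.

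Among brakes other than SOCS proteins, 3 of 12 fell and 0 rose, or 6 and 0 with the block. *Ptpn1*, a phosphatase that acts on JAK2 and TYK2, fell from 440 ± 18.2 to 341 ± 7.40 CPM (SD, n = 5), a log2 fold change of -0.37 (edgeR FDR 0.00101) without overlap of the groups. *Ptpn6*, the phosphatase SHP-1, had a log2 fold change of -0.20 (edgeR FDR 0.0272). *Sh2b3*, the adaptor LNK that restrains JAK2, had one of -0.26 (edgeR FDR 0.0363). The most abundant gene of the list, *Ptprc* for CD45, was at 622 ± 37.4 CPM against 726 ± 70.1 CPM (edgeR FDR 0.069, or 0.00192 with the animal as a block). Of the other SOCS genes 0 of 5 were called (1 by DESeq2, 0 by limma-trend, 4 at an unadjusted edgeR p below 0.05, and 1 higher and 3 lower with the block), and *Socs7*, the most abundant, had a log2 fold change of -0.20 (edgeR FDR 0.114, or 0.00942 with the block). Of the other STAT genes 0 of 4 tested were called (2 by DESeq2, 1 by limma-trend, 2 at an unadjusted edgeR p below 0.05, and 2 lower with the block). *Stat2*, a factor of type I interferon signaling and the most abundant of these, was at 170 ± 42.7 against 239 ± 36.8 CPM (SD, n = 5) and was lower in ARG1+ cells in 5 of 5 animals (log2 fold change -0.49, edgeR FDR 0.0571, or 0.000169 with the block).

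Among the 10 tested receptor chains of the common gamma and common beta families, 2 rose and 3 fell. *Il2ra*, the IL-2 receptor alpha chain, fell from 3.22 ± 1.61 to 0.356 ± 0.149 CPM (SD, n = 5), a log2 fold change of -3.10 (edgeR FDR 0.000751). It was low in ARG1+ cells, with 55 counts in 5 libraries. *Il7r*, the IL-7 receptor alpha chain, rose from 123 ± 31.3 to 229 ± 60.3 CPM (log2 fold change 0.90, edgeR FDR 0.00961) and was higher in 5 of 5 animals. *Il3ra* also rose, by a log2 fold change of 0.30 (edgeR FDR 0.0263), and *Il21r* changed by -0.44 (edgeR FDR 0.0312). *Csf2ra*, the alpha chain that binds GM-CSF, fell from 570 ± 38.4 to 458 ± 35.3 CPM, a log2 fold change of -0.32 (edgeR FDR 0.0131). *Csf2rb*, the beta chain that carries JAK2 and the most abundant of the list, was at 831 ± 51.1 against 851 ± 86.2 CPM (edgeR FDR 0.812).

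Of 8 tested receptor chains of the IL-6 and IL-10 families, 1 rose and 2 fell, or 2 and 4 with the block. *Il10ra*, the ligand-binding chain for IL-10, fell from 188 ± 57.5 to 117 ± 21.8 CPM (SD, n = 5), a log2 fold change of -0.68 (edgeR FDR 0.0282). *Il6ra* fell from 167 ± 17.4 to 127 ± 7.87 CPM, a log2 fold change of -0.39 (edgeR FDR 0.0064), without overlap. *Il11ra1* rose by 0.39 on the log2 scale (edgeR FDR 0.028). *Csf3r*, the most abundant over the 10 libraries together, was at 144 ± 26.4 against 183 ± 44.9 CPM (edgeR FDR 0.175, or 0.00329 with the block). Of the 5 interferon receptor chains 1 fell, or 2 with the block. *Ifnlr1* fell by 1.33 on the log2 scale (edgeR FDR 0.0456) at a level near 1 CPM, whereas *Ifngr1*, the most abundant by a small margin, had a log2 fold change of -0.076 (edgeR FDR 0.56). Neither of the 2 tested chains for IL-12 and IL-23 was called by any of the 3 tools without a block, and *Il12rb1*, the more abundant, had a log2 fold change of -0.25 (edgeR FDR 0.388, or 0.0115 with the block).

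**Figure D4:**
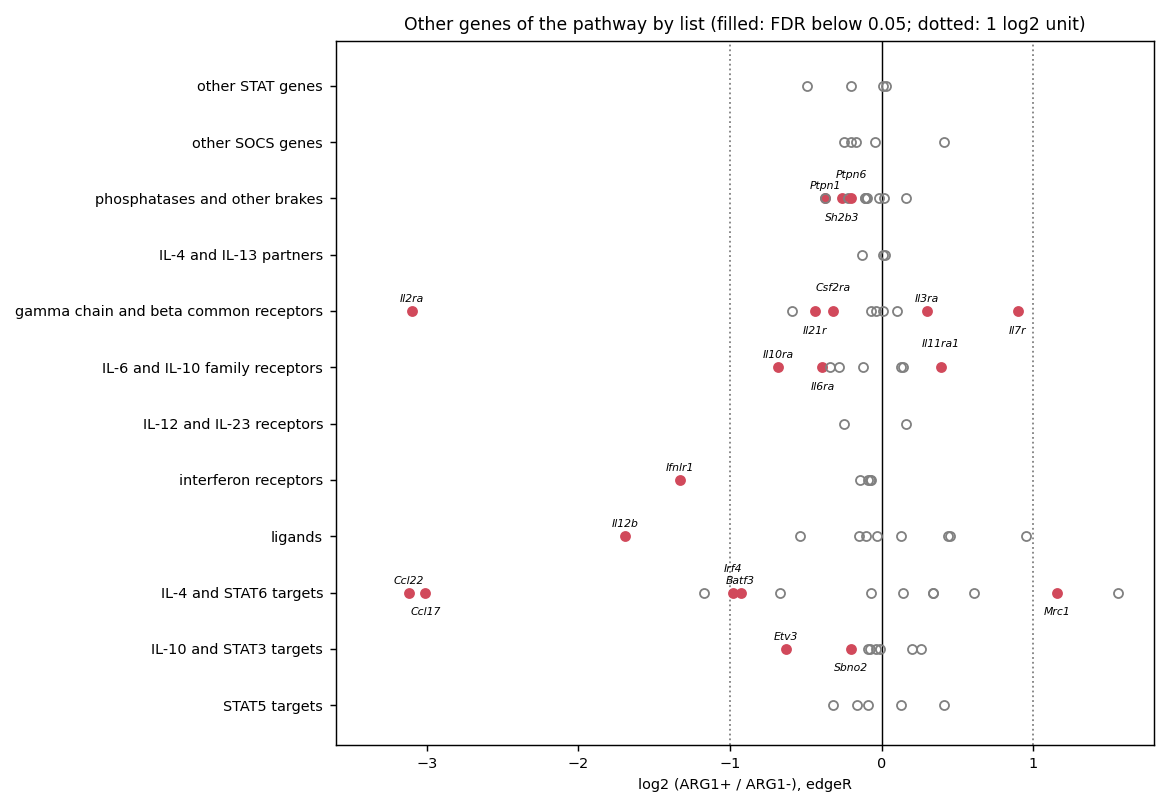
Log2 fold change between ARG1+ and ARG1- cells (edgeR, horizontal axis) of each tested gene in the 12 lists of other pathway genes (rows). Filled red points passed an FDR of 0.05 and carry their names, open points did not, and dotted lines mark 1 log2 unit. Most called genes lie to the left, with *Ccl22*, *Ccl17* and *Il2ra* near -3, and *Il3ra*, *Il7r*, *Il11ra1* and *Mrc1* lie to the right.

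Among 9 tested ligands 1 fell and 0 rose, whereas 2 fell and 3 rose with the block. *Il12b*, a subunit of IL-12 and IL-23, fell from 2.28 ± 1.30 to 0.720 ± 0.439 CPM (SD, n = 5), a log2 fold change of -1.69 (edgeR FDR 0.0251). The most abundant ligand was *Osm* for oncostatin M, at 176 ± 16.5 against 161 ± 5.22 CPM (edgeR FDR 0.2). The genes that IL-4 and STAT6 are known to induce did not move in 1 direction, with 1 of 13 tested higher and 4 lower, or 6 of each with the block. *Ccl17* fell from 12.1 ± 7.30 to 1.49 ± 1.28 CPM (log2 fold change -3.01, edgeR FDR 0.00681) and *Ccl22* from 11.6 ± 5.55 to 1.34 ± 0.816 CPM (log2 fold change -3.12, edgeR FDR 0.00143). Both are chemokines that dendritic cells also make. *Irf4* and *Batf3*, transcription factors used by dendritic cells as well, had log2 fold changes of -0.98 and -0.93 (edgeR FDR 0.0227 and 0.0302). *Mrc1*, the mannose receptor CD206 and also a marker of border-associated macrophages, rose from 26.8 ± 12.1 to 60.9 ± 26.9 CPM (log2 fold change 1.16, edgeR FDR 0.032). *Chil3* was the most abundant of this list, at 3540 ± 2030 against 2790 ± 1720 CPM (edgeR FDR 0.664, or 0.00132 with the block). *Retnla* and *Fcer2a*, other genes of the list, had 0 counts in all 10 libraries. The part of the dendritic cell, border-associated macrophage, monocyte and microglia markers in these differences was not tested.

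Of 8 genes that IL-10 and STAT3 are known to induce, 2 fell and 0 rose, or 2 and 2 with the block. *Etv3*, a transcriptional repressor, fell from 182 ± 39.8 to 118 ± 19.5 CPM (SD, n = 5), a log2 fold change of -0.63 (edgeR FDR 0.0186). *Sbno2* had one of -0.20 (edgeR FDR 0.034). *Junb*, the most abundant of the list, was at 1470 ± 174 against 1220 ± 81.6 CPM (edgeR FDR 0.066, or 0.00133 with the block). Of 6 STAT5 targets 0 were called (1 by DESeq2, 0 by limma-trend, 1 at an unadjusted edgeR p below 0.05, and 1 higher and 2 lower with the block), and *Pim1*, the most abundant, was at 662 ± 49.9 against 703 ± 25.9 CPM (edgeR FDR 0.378).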

How the data were processed

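Messenger RNA was sequenced from 10 libraries of sorted spinal cord cells, 5 ARG1+ and 5 ARG1-, from the same 5 animals. Per the labels and methods, the authors made libraries with a directional kit, read 50 bases from 1 end, aligned the reads to GRCm38 with STAR (2.7.10b in the submitters' processing notes) and counted them on Ensembl release 100 transcripts with summarizeOverlaps (GenomicAlignments 1.24.0) in Union mode. The sources used here do not give whether counting used the strand. The deposited table holds raw read counts per gene, summed over transcripts.

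Genes over 1 CPM in 3 or more libraries were tested with edgeR 4.0.16 (R 4.3.3), using its quasi-likelihood test with TMM library sizes, no block and a Benjamini-Hochberg adjusted limit of 0.05. These tests rest on the spread between animals. The 2 libraries of a number come from 1 animal per the titles, and their residuals had correlations of 0.361 to 0.664 across genes. Between different animals these ran from -0.367 to 0.0675. Alternatives were DESeq2 1.42.0, limma-trend (limma 3.58.1), other library sizes and filters, the fold limit, a replicate block for the animal, and fits that left out each library or both libraries of each animal in turn. Counts of libraries of a group differed by more than sampling gives (chi-square over its degrees of freedom 17.8 to 71.7). Log2 CPM used a prior count of 2. At the smallest library, 1 CPM is 8.40 counts. Tests were tried on simulated data without an animal effect, which does not cover the pairing of the real libraries. Exon lengths and overlaps came from GENCODE annotation of GRCm38, and promoters of all 10 genes from RefSeq.

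The 10 genes and the lists were chosen with earlier results of these data known. The genes named are the 10, the other pathway genes past FDR 0.05, the most abundant tested gene of each list by mean CPM over the 10 libraries, and for *Cish*, *Socs1* and *Socs3* the 3 genes with the highest correlation. Ligands, receptor partners and other genes outside this rule were named after their values were seen. The remaining marker lists were examined too, and the monocyte list is repeated here. Of tested monocyte and myeloid markers 3 of 8 were higher and 1 lower (*Ccr2*), or 3 and 5 with the block, of border-associated macrophage markers 2 of 2 higher, of astrocyte markers 2 of 4 higher, and of neutrophil markers 1 of 3 lower (*S100a9*), or 2 higher and 1 lower with the block. The 1 tested T and natural killer cell marker was not called by edgeR, DESeq2 or limma-trend. Of 5 oligodendrocyte markers 0 were called by edgeR or limma-trend, 2 by DESeq2, 2 at an unadjusted edgeR p below 0.05, and 1 higher and 1 lower with the block. A gene on the marker lists is left out of the text and not reported here.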

Additional observations from a re-analysis of the deposited data

How the results depend on the processing

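*Jak2* was called under every alternative except the fold limit. The count of the 10 genes called was 2 in the reported fit. It was 1 (*Jak2*) with no filter on low counts, 0 with the fold limit and 1 to 2 in the 15 fits without a library or an animal. With the animal as a replicate block it was 4 (*Il4ra*, *Jak2*, *Jak3* and *Stat3*), all lower. That block called 18.3% of all tested genes lower and 16.8% higher. It stayed at 2 with DESeq2, limma-trend, DESeq2 size factors, library totals and filterByExpr. Of 97 other pathway genes, 20 were called, against 31 with DESeq2, 50 with the replicate block, 6 with the fold limit, and 8 to 19 in the leave-one-out fits. Over all genes 1782 were called, against 4826 with the replicate block, 199 with the fold limit, and 644 to 1948 in the leave-one-out fits. The lowest of these, 8 and 644, came without m6, and 8 also without m2. Library totals without TMM factors gave 705 genes higher and 1281 lower, against 937 and 845. Genes near 0 changed sign. *Jak1* was at 0.001 without the filter and -0.024 to 0.002 in the leave-one-out fits. *Stat6* was at -0.037 with library totals and -0.027 to 0.024 in the leave-one-out fits, *Socs3* at -0.057 to 0.0013, *Cish* at -0.012 to 0.18, *Chil3* at -0.036 to 0.72 and *Csf2rb* at -0.093 to 0.0035, all on the log2 scale. The cause was not tested. The block changed the call of *Jak3* and *Il4ra* and of no other among the 10 genes. *Ptpn6*, *Sbno2* and *Sh2b3* lost their call without the filter on low counts (edgeR FDR 0.127, 0.135 and 0.0541) and *Ifnlr1* with limma-trend (FDR 0.0551). Lowly expressed genes such as *Il2ra* and *Ifnlr1* rest on few counts.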
